A study of Caenorhabditis elegans with 2 samples.

Results

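Sarcomere and muscle attachment genes of Caenorhabditis elegans were examined for binding of UNC-39, a SIX4/5-family homeodomain transcription factor with known roles in mesoderm and in some neurons. The 49 genes were taken by name from the components of the worm's contractile apparatus and its anchors, out of 19973 protein-coding genes. A summit, the position of highest signal in a peak, was counted for a gene when it lay inside the gene or within 2000 bp of the 5' end of any of its transcripts. By that rule 230 of the 30000 summits in the authors' pooled list were in reach of these genes. The authors label that list as peaks and background together, so a summit in it need not be a bound site. A single summit, between mlc-1 and mlc-2, was in reach of 2 of the genes, which gives 231 pairs of gene and summit. Binding was mapped by ChIP-seq, the sequencing of immunoprecipitated chromatin, in whole worms of strain OP186 at the second larval stage, L2, with both sexes pooled. These worms carry the insertion wgIs186, from which UNC-39 is made as a fusion with eGFP, and the unc-119 allele ed3 on chromosome III. There were 2 biological replicates in 1 group, so genes and summits were compared with each other, and no condition was compared. Because the chromatin came from whole animals, strong binding in few cells and weak binding in many cannot be told apart, and no value belongs to muscle cells alone.

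In body-wall muscle, myosin thick filaments cross-linked at M-lines slide past actin thin filaments anchored at dense bodies. Calcium released inside the cell binds troponin C, which moves tropomyosin along the thin filament and lets myosin bind actin. Integrins under each dense body and M-line hold the contractile lattice to perlecan in the basement membrane, and pharyngeal muscle uses its own myosins.

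No gene of the 49 had a summit of the authors' thresholded list in reach. That count of 0 allows a share of up to 6.12%, and 0.831% of protein-coding genes had such a summit. The highest signal at any of the 49 genes was 39.6, while the 140 thresholded peaks ran between 45.9 and 139. Signal is the authors' enrichment value per peak. The thresholded peaks are the 140 highest of the pooled list and carry the same signals there, while the replicates' lists have scales of their own. Weaker summits, from the pooled list of peaks and background, were common. Of the 49 genes 46 had at least 1 pooled summit in reach (93.9%, 95% exact binomial interval 83.1 to 98.7), against 78.7% of protein-coding genes. The 1000 highest pooled summits, with signals of 30.4 and above, reached 7 of the 49 genes (14.3%, interval 5.94 to 27.2) and 5.2% of protein-coding genes. The 3000 highest, with signals of 24.9 and above, reached 17 (34.7%, interval 21.7 to 49.6) and 15.1%. With gene bodies left out and only 2000 bp around 5' ends counted, the numbers were 4 genes (8.16%, interval 2.27 to 19.6), against 4.33%, for the 1000 highest. For the 3000 highest they were 9 (18.4%, interval 8.76 to 32), against 12.7%, and both intervals include the share of all genes. These intervals cover counting error only. The best summit of a muscle gene had a median rank of 4939 over the 46 genes with a summit, against 9465.5 over the 15728 protein-coding genes with a summit. The number of summits varied widely, with 6 genes having 1, 26 having 2 to 4 and 6 having 10 or more.

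**Figure D1:**
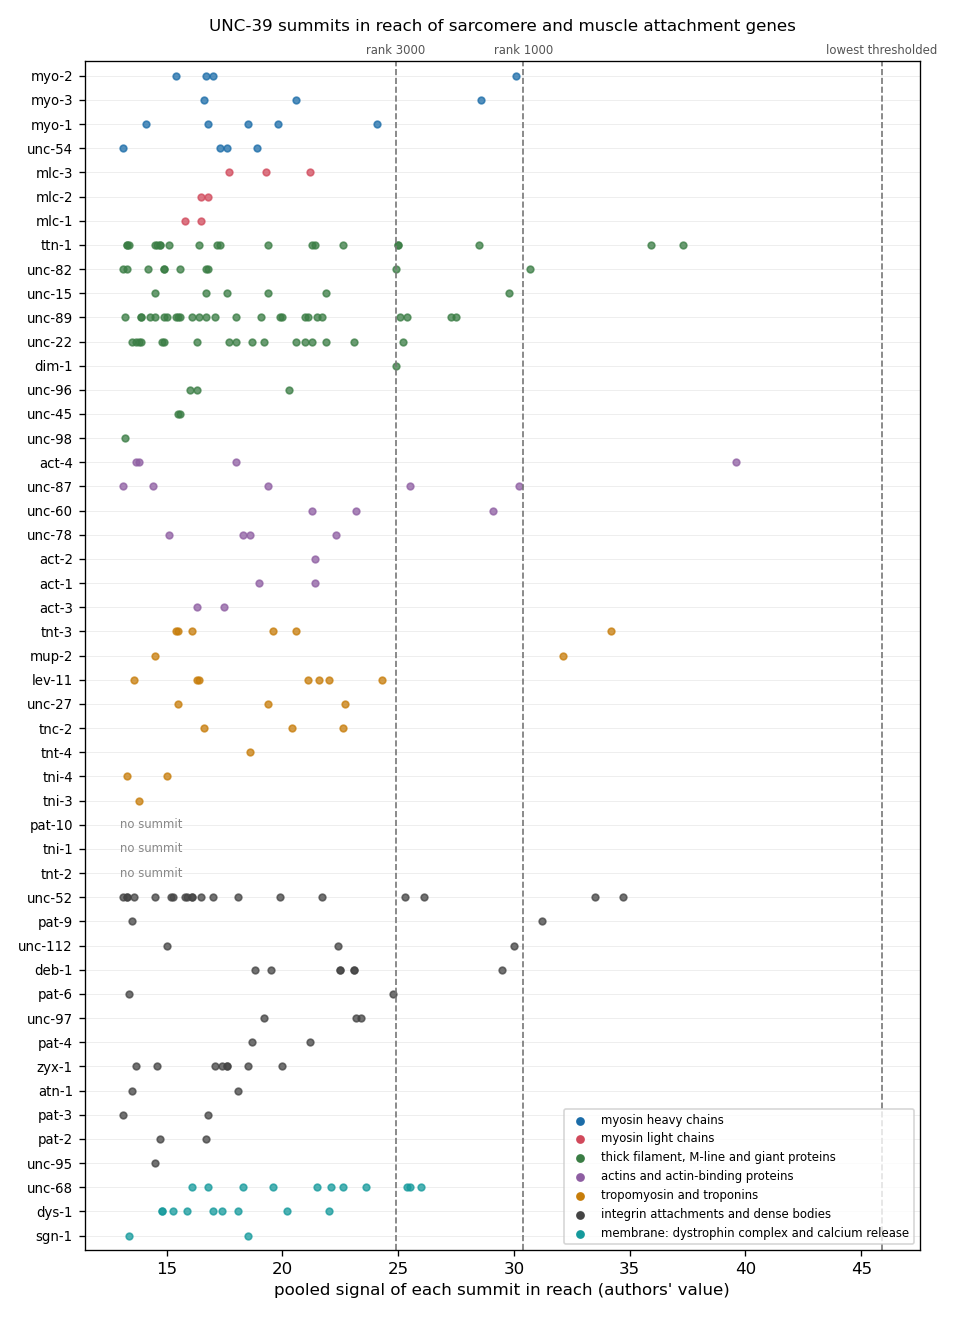
Pooled signal (horizontal axis, the authors' value) of each summit of the pooled list, which holds peaks and background, in reach of each of the 49 genes. Genes run down the page by role with the best-ranked gene of a role at its top. Dashed lines mark the signals at ranks 3000 and 1000 and the lowest thresholded signal of 45.9, which no summit at these genes passed; act-4 came nearest with 39.6.

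Gene length moves these shares, since a longer gene has more room for summits. The median length was 4800 bp for the 49 genes and 2027 bp for protein-coding genes. Among genes over 10 kb, 3 of 10 muscle genes (30%, interval 6.67 to 65.2) and 16.4% of protein-coding genes had a summit among the 1000 highest. Among genes of 5 to 10 kb the values were 1 of 14 (7.14%, interval 0.181 to 33.9) and 9.8%. Among genes up to 5 kb they were 3 of 25 (12%, interval 2.55 to 31.2) and 3.92%. Each of these intervals includes the share of all genes of that length. With so few genes they are wide, and whether length accounts for the shares of the whole set was not tested. Median best ranks were 2609 for muscle genes and 4267 for protein-coding genes over 10 kb, 3248.5 and 6850.5 at 5 to 10 kb, and 6397 and 10440 up to 5 kb. Per kb of reach there were 0.389 summits at muscle genes and 0.313 at protein-coding genes. The density was 0.362 at the 5 longest muscle genes, which held 92 of the 231 pairs, and 0.41 at the other 44. Whether these densities differ beyond chance was not tested.

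**Figure D2:**
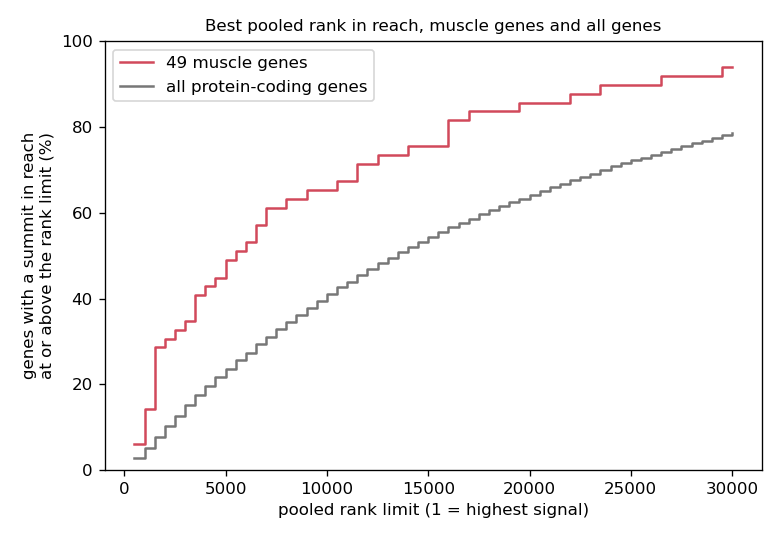
Share of genes (vertical axis, %) with a pooled summit in reach at or above a rank limit (horizontal axis, 1 is the highest signal), for the 49 muscle genes and for all protein-coding genes. The muscle gene curve lies above that of all genes, at 14.3% against 5.2% at rank 1000 and 34.7% against 15.1% at rank 3000, with no allowance for gene length.

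The X chromosome held 15 of the 49 genes. Of these 4 had a summit among the 1000 highest (26.7%, interval 7.79 to 55.1), against 7.36% of protein-coding genes on X. On autosomes 3 of 34 did (8.82%, interval 1.86 to 23.7), against 4.86% of autosomal protein-coding genes. Those on X were act-4, tnt-3, mup-2 and pat-9, and those on autosomes were ttn-1, unc-52 and unc-82. The replicates differed here. The 1000 highest of replicate 1's own list reached none of the set's genes on X. Those of replicate 2 reached act-4, tnt-3, pat-9 and myo-2. In replicate 1 the X summits of tnt-3, mup-2 and pat-9 ranked 2582, 4131 and 17435, and that of act-4 had no partner. The share of all protein-coding genes on X that each replicate's 1000 highest reached is not given, so this contrast cannot be tied to the set. The shares by chromosome make no allowance for gene length.

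The actin gene act-4 (X, 4960621 to 4964413, WBcel235) carried the highest signal of the set, 39.6 at rank 260, among 4 summits. Its peak ran over 4962188 to 4962551, in an intron, with the summit 505 bp upstream of the nearest act-4 5' end. The 2 replicates differed there. Replicate 2 had a summit 26 bp away, with a signal of 25.4 at rank 174 of its own list, while the nearest summit of replicate 1 was 3539 bp away, with a signal of 7.94 at rank 29069. The centre of the peak is shown because it holds a long CA repeat, in capitals, where copies of the word CACACA overlap. It is written, like each sequence here, from the RefSeq genome of WBcel235 on the plus strand, chrX:4962270-4962469.
act-4: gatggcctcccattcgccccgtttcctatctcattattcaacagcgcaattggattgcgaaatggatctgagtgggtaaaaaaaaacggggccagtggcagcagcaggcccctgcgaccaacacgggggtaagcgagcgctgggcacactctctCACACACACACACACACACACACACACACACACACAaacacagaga

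The giant titin-like gene ttn-1 (V, 6120909 to 6202632, 81724 bp) had 20 summits, 15 of them in its own coding exons. The highest, at 6145858 in a coding exon, had a signal of 37.3 at rank 328. Its signal was 21 at rank 437 in replicate 1, and 13.6 at rank 3072 in replicate 2. The next, at 6129457 in an intron, had 35.9 at rank 403, and stood the other way round, at rank 3714 in replicate 1 and 509 in replicate 2. These 2 summits were nearest to a 5' end of another protein-coding gene, exp-2, at 4387 and 1943 bp. From the nearest ttn-1 5' end they lay 14796 and 31197 bp away. Others among the 3000 highest were at ranks 1444, 2969 and 2988 (summits 6147083, 6124203 and 6147308), all in coding exons, and each had a partner in only 1 replicate. The summits at ranks 328, 1444 and 2988 lay near each other, between 13346 and 14796 bp downstream of the nearest ttn-1 5' end. The centre of the rank 328 peak is shown as a case inside coding sequence (chrV:6145758-6145957), the capitals marking the GATA-factor word TGATAA on the minus strand.
ttn-1: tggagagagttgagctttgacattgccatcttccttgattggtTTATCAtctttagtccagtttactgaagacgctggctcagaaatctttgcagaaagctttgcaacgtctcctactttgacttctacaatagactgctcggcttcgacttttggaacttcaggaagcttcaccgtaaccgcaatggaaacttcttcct

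The perlecan gene unc-52 (II, 14647321 to 14684456) also had 20 summits, 11 of them in coding exons, and 4 were among the 3000 highest. Perlecan is the basement membrane proteoglycan to which muscle cells attach. The summit at 14664670, in a coding exon, had a signal of 34.7 at rank 495. In replicate 1 its signal was 23.2 at rank 209, and in replicate 2 it was 7.75 at rank 21434. That at 14669669, in an intron, had 33.5 at rank 589, with 26 at rank 101 in replicate 1 and 8.45 at rank 17335 in replicate 2. Both were therefore high in replicate 1 and in the lower part of replicate 2's list of 24978. The coding-exon summits at ranks 2320 (14656590) and 2730 (14661740) went the other way, with ranks 1267 and 1712 in replicate 2. In replicate 1 the first of these ranked 27687 and the other had no partner within 100 bp. The intron peak is shown because its centre holds a match, at 1 mismatch, to the MEF3 word TCAGGTTTC of SIX-family factors, in capitals on the minus strand (chrII:14669569-14669768).
unc-52: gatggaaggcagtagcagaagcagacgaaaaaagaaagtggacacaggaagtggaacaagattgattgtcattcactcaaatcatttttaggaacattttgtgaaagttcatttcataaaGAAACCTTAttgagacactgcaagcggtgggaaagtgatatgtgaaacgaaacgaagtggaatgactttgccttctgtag

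**Figure D3:**
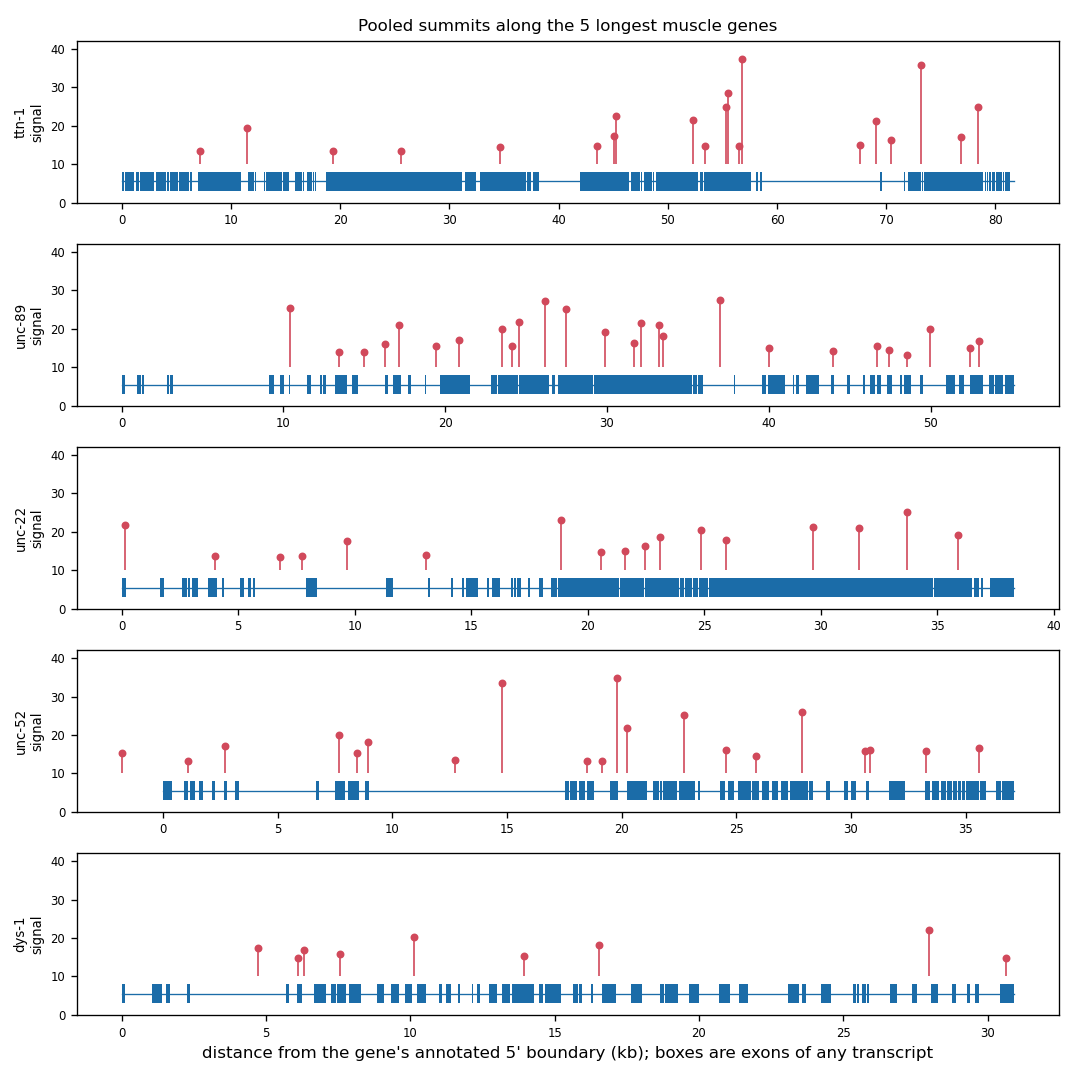
Pooled summits (points, whose vertical position is the authors' signal) along the 5 longest of the 49 genes, against the distance from each gene's annotated 5' boundary (kb); boxes are exons of any transcript. The highest points are the ttn-1 summits of 37.3 and 35.9 and the unc-52 summits of 34.7 and 33.5, and those of dys-1 reach 22.

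Troponin genes spanned the set from its upper end to genes with no pooled summit. Troponin T, which fixes the troponin complex to tropomyosin, had the strongest summits of this role, at its genes tnt-3 (X, 7937633 to 7945099, 6 summits) and mup-2 (X, 6408471 to 6410227, 2 summits). The tnt-3 summit at 7944063 lay in a coding exon 479 bp downstream of a 5' end, with a signal of 34.2 at rank 534. Its signal was 15.9 at rank 2582 in replicate 1, and 19.8 at rank 462 in replicate 2. The mup-2 summit at 6409614, in a coding exon 613 bp downstream of the 5' end, had a signal of 32.1 at rank 724, with 14.5 at rank 4131 in replicate 1 and 16.7 at rank 1103 in replicate 2. Both genes stood higher in replicate 2. The tnt-3 centre is shown as the highest coding-exon site near a 5' end (chrX:7943963-7944162). None of the searched words is in it, so it has no capitals.
tnt-3: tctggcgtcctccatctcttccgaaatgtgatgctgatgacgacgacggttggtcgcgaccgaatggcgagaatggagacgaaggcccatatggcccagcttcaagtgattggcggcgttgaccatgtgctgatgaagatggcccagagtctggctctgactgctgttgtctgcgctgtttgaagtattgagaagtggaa

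The body-wall troponin C gene pat-10, the troponin I gene tni-1 and the troponin T gene tnt-2 were the only genes of the 49 with no pooled summit in reach. Each had summits in the list of only 1 replicate, 1 for pat-10 at rank 10598 in replicate 2, and 2 each for tni-1 and tnt-2 in replicate 1, at best ranks of 5241 and 24906. The troponin I genes unc-27 (3 summits), tni-4 (2) and tni-3 (1) had best ranks of 4905, 21621 and 26337. The troponin C gene tnc-2 (3 summits) had a best rank of 4973, and the troponin T gene tnt-4 (1 summit) of 11009. Tropomyosin, encoded by lev-11, had 7 summits, 5 of them in introns and none in a coding exon, with a best rank of 3476.

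The group listed as integrin attachments and dense bodies had 54 summits at 12 genes, and 4 of the 12 genes were reached by the 3000 highest. Beside unc-52 these were pat-9, unc-112 and deb-1. The gene pat-9, though counted in this group, encodes a zinc finger protein of muscle nuclei. Its best summit, at 16538317 on X in an intron 625 bp downstream of a 5' end, had a signal of 31.2 at rank 860. Its signal was 9.89 at rank 17435 in replicate 1, and 19.5 at rank 493 in replicate 2. At the kindlin gene unc-112 the summit at 14697138 on V lay 484 bp upstream of the only 5' end, with a signal of 30 at rank 1083. It had 13 at rank 6760 in replicate 1, and 19.4 at rank 514 in replicate 2. The vinculin gene deb-1 had its best summit at 7090286 on IV in a coding exon, with a signal of 29.5 at rank 1201, rank 4023 in replicate 1 and 1065 in replicate 2. All 3 of these summits stood higher in replicate 2 than in replicate 1, though another deb-1 summit ranked 965 in replicate 1's own list. The unc-112 centre is shown as a site upstream of a start (chrV:14697038-14697237), and it holds none of the searched words, so it has no capitals.
unc-112: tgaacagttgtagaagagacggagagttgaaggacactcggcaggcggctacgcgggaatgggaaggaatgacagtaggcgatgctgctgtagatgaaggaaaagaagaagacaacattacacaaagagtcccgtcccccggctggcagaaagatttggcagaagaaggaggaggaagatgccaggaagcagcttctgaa

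The other genes of this group had no summit among the 3000 highest. Best ranks were 3089 at the parvin gene pat-6, 4180 at the PINCH gene unc-97, 6634 at the integrin-linked kinase gene pat-4 and 8507 at the zyxin gene zyx-1. They were 12076 at the alpha-actinin gene atn-1, 15593 at pat-3 (beta integrin), 15962 at pat-2 (alpha integrin) and 23437 at the LIM protein gene unc-95. The integrin genes themselves, pat-2 and pat-3, had no summit inside the gene, and the 2 in reach of each lay outside it. Counts of summits were 8 at zyx-1, 7 at deb-1, 3 each at unc-112 and unc-97, 2 each at pat-4, pat-6, pat-9 and atn-1, and 1 at unc-95.

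Thick filament, M-line and giant protein genes gave 86 summits at 9 genes, the most of any role, over 252 kb of reach. Their density of 0.341 per kb was below the 0.389 of the whole set. The kinase gene unc-82 had 10 summits, the best in an intron at 7435554 on IV, with a signal of 30.7 at rank 945. That summit had a signal of 17 at rank 1757 in replicate 1, and 12.4 at rank 4589 in replicate 2. It lay 4206 bp from the nearest unc-82 5' end and 1596 bp from that of another gene, B0496.11. The paramyosin gene unc-15 had 6 summits, the best 3 bp upstream of a 5' end (7383200 on I), with a signal of 29.8 at rank 1130. No other summit of the set among the 3000 highest was as near to a 5' end of its own gene. It ranked 6297 in replicate 1 and 1677 in replicate 2. The obscurin-like gene unc-89 had the most summits of the 49 genes, 26, of which 18 were in coding exons, and a best signal of 27.5 at rank 1746. That summit, at 4072665 on I, lay in an unc-89 intron and inside another protein-coding gene, clec-89, 463 bp from the clec-89 5' end. Replicate 1 had it at rank 914 and replicate 2 had no partner for it. Further unc-89 summits stood at ranks 1806, 2680 and 2907 (4061881, 4046112 and 4063172). The twitchin gene unc-22 had 17 summits, 12 of them in coding exons. Its best, at 11977297 on IV, had a signal of 25.2 at rank 2851, with rank 952 in replicate 1 and 18704 in replicate 2. Just inside the 3000 highest stood ttn-1 at rank 2988 with a signal of 25, and just outside were unc-82 at 3013 and dim-1, an immunoglobulin-domain gene with 1 summit, at 3021, both with 24.9. The M-line genes unc-96 (3 summits) and unc-98 (1) had best ranks of 7940 and 29189, and the myosin chaperone gene unc-45 (2) of 19394.

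Myosin heavy chain genes each had between 3 and 5 summits, of which 3 at each gene were in coding exons. At the pharyngeal gene myo-2 (X, 12468061 to 12475348, 4 summits) the best, at 12473629 in a coding exon, had a signal of 30.1 at rank 1063. It ranked 5408 in replicate 1 and 15198 in replicate 2, whose own summit of rank 591 lay 147 bp away, beyond the matching distance. At myo-3, the body-wall myosin A gene (3 summits), the best, at 12228120 on V in a coding exon, had a signal of 28.6 at rank 1415. It ranked 25495 in replicate 1 and 1696 in replicate 2. The other pharyngeal gene, myo-1 (5 summits), had a best rank of 3612. The major body-wall myosin gene unc-54 (4 summits) had a best signal of 18.9 at rank 10467, 1277 bp upstream of its 5' end and with no partner in replicate 2. Replicate 2's own list held 3 summits in reach of unc-54, the best at rank 1754. No light chain gene had a summit among the 3000 highest. The essential light chain gene mlc-3 (3 summits) had a signal of 21.2 at rank 6661 in a coding exon (5566684 on III), with rank 454 in replicate 1 and no partner in replicate 2. The regulatory light chain genes mlc-2 and mlc-1 (2 summits each) had best ranks of 15639 and 16540.

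Actin genes other than act-4 lay well below it, with best ranks of 6371 at act-2 (1 summit), 6423 at act-1 (2) and 13556 at act-3 (2). None of the 4 actin genes had a summit in a coding exon. Their coding sequences were 91.8% to 100% identical over 1128 bp, with act-1 and act-3 the same throughout, and those of mlc-1 and mlc-2 were 96.7% identical. Reads from such exons may not be assignable to 1 gene, and how they were treated in these lists is not given, so coding-exon counts at the actin genes, mlc-1 and mlc-2 are uncertain. Of the actin-binding genes, unc-87, calponin-like and with 5 summits, had a signal of 30.2 at rank 1034 (6768543 on I). This summit was 746 bp upstream of a 5' end and inside the noncoding RNA gene F08B6.7, with ranks of 1306 and 3767 in replicates 1 and 2. Its next, in an intron, had rank 2636 (6766550). The cofilin gene unc-60 (3 summits) had a signal of 29.1 at rank 1292 in an intron (1475667 on V), where another protein-coding gene, F53E2.2, overlaps it. That summit ranked 1198 in replicate 1 and 5333 in replicate 2. At unc-78, the actin-interacting protein 1 gene (4 summits), the best rank was 5257.

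Calcium release and dystrophin genes were led by unc-68, the ryanodine receptor that releases calcium from the sarcoplasmic reticulum. It had 11 summits, 8 of them in coding exons. The best, at 6921026 on V, had a signal of 26 at rank 2367, with rank 2360 in replicate 2 and no partner in replicate 1. Coding-exon summits at 6909733 and 6903939 followed at ranks 2645 and 2689. The first ranked 6110 in replicate 2, and replicate 1's own summit of rank 485 lay 133 bp away, beyond the matching distance. The other ranked 5825 in replicate 1 and 11108 in replicate 2. The dystrophin gene dys-1, 30934 bp long, had 9 summits and a best rank of 5621. The sarcoglycan gene sgn-1 had 2, both outside the gene, with a best rank of 11288.

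In the pooled list coding exons held more of the higher summits than introns or the flanks did. Of the 30 among the 3000 highest, 18 were in the gene's own coding exons (60%), 9 in its introns or untranslated exons and 3 outside the gene. In coding exons of any protein-coding gene lay 66.7% of the 30 and 32.8% of the 3000 highest pooled summits. Of the 140 thresholded peaks, which reached no gene of the set, 5.71% were in coding exons and 67.9% outside protein-coding genes. Coding exons were 38.3% of the reach of the 49 genes and 21.7% of that of protein-coding genes. Per kb of own coding exon there were 0.0793 summits among the 3000 highest at muscle genes and 0.0398 at protein-coding genes. In introns and untranslated exons the densities were 0.0347 and 0.0257, and outside the gene 0.0282 and 0.0326. With all pooled summits the coding densities were 0.471 and 0.4, the intron and untranslated ones 0.316 and 0.273, and the outside ones 0.394 and 0.301. As a ratio, though not as a difference, the gap in coding exons was thus wider for the higher summits, which rest on 18 at muscle genes. In replicate 1's own 3000 highest, muscle genes had 0.0704 per kb of coding exon and protein-coding genes 0.0424. In replicate 2 the values were 0.0793 and 0.0391. The other places did not keep their direction. Introns and untranslated exons had 0.0154 at muscle genes and 0.0258 at protein-coding genes in replicate 1, and outside the gene the values in replicate 2 were 0.0469 and 0.0336. Without the 5 longest genes, which held 14 of the 30 summits, the pooled coding density of the muscle genes was 0.0791. The share of their higher summits in coding exons was then 8 of 16 (50%) in the pooled list, 11 of 16 (68.8%) in replicate 1 and 8 of 21 (38.1%) in replicate 2. In replicate 2 introns and untranslated exons then held as many, 8 of 21. These further lists and the removal of the longest genes were chosen after the data were seen, and none of the differences was tested. Median GC content in the central 200 bp was 45.5% at summits of the set in coding exons and 41% at all pooled summits in coding exons, and its part in the result was not tested.

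**Figure D4:**
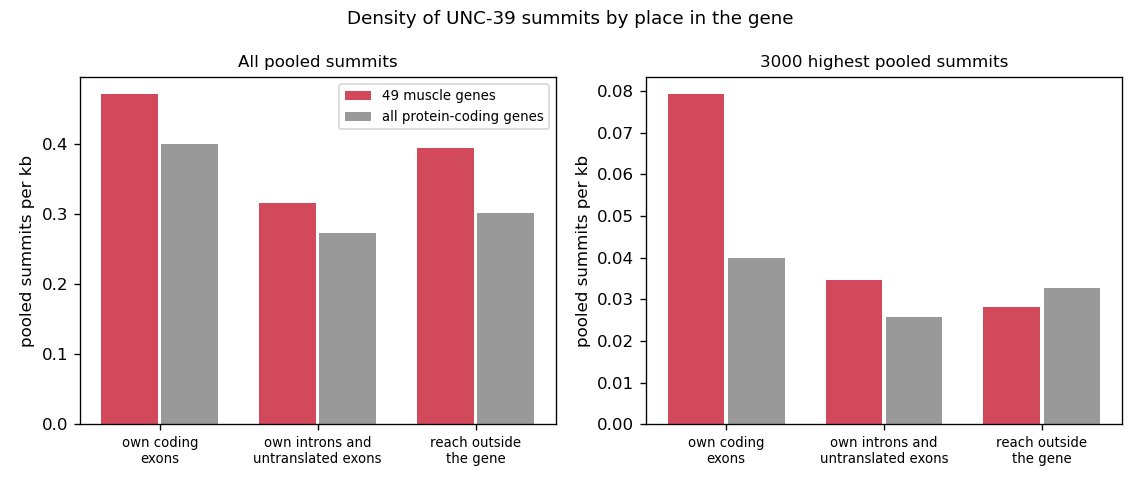
Summits of the pooled list per kb (vertical axis) in a gene's own coding exons, its introns and untranslated exons, and the reach outside it, for the 49 muscle genes and for all protein-coding genes. Among the 3000 highest summits (right) the bars for coding exons stand at 0.0793 and 0.0398, while outside the gene they stand at 0.0282 and 0.0326.

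Start sites held few of the higher summits. Of the 30 summits 3 were within 500 bp of a 5' end of their own gene, at tnt-3, unc-112 and unc-15. Within 500 bp of any protein-coding 5' end there were 4 of the 30 (13.3%), against 27.8% of the 3000 highest pooled summits and 35% of thresholded ones. Over all 230 summits the share was 17.4%, against 25.7% of the pooled list. The sets compared differ in make-up, since the reach takes in whole gene bodies and 14 of the 30 were at the 5 longest genes. Outside protein-coding genes lay 10% of the 30, against 34.9% of the 3000 highest. No allowance was made for this, and the differences were not tested. The nearest protein-coding 5' end belonged to the gene itself for 171 of the 231 pairs.

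The replicates ranked these summits differently. Of the 9 muscle gene summits among the 1000 highest, 8 had a partner within 100 bp in both replicates' own lists, but 0 were among the 1000 highest of both, and 0 of 9 leaves room for shares up to 33.3%. Of all 1000 highest pooled summits 14.5% were, and of thresholded summits 69.3%. Over all 230 summits 21.7% had a partner in both replicates (exact binomial interval 16.6 to 27.6), against 19% of the pooled list. A partner in neither replicate was the case for 18.7%, against 17.4% of the pooled list. Among the 30 higher summits the share was 70% (interval 50.6 to 85.3), against 66.6% of the 3000 highest. Spearman's rho between the replicates' ranks was 0.00523 over the 50 muscle gene summits with both partners and 0.186 over 5714 pooled summits. It was -0.516 over the 21 of these among the 3000 highest pooled, and -0.126 over 1998 pooled ones. The rho values describe summits that share libraries and were selected by pooled signal, and they carry no p.

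**Figure D5:**
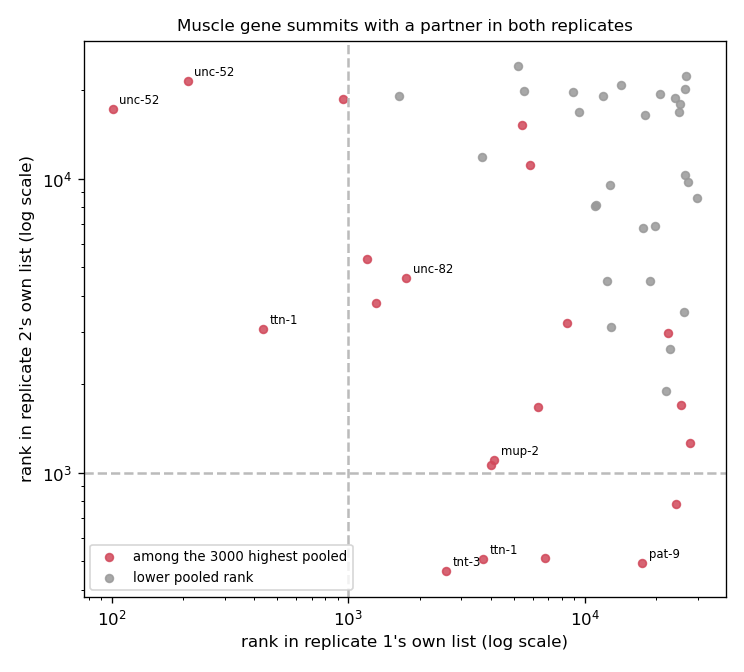
Rank in replicate 1's own list (horizontal) against rank in replicate 2's (vertical), both on log scales, for muscle gene summits with a partner in both; those among the 1000 highest pooled are named, and dashed lines mark rank 1000. No point lies below rank 1000 on both axes, and unc-52 stands at ranks 101 and 209 in replicate 1 while pat-9 and tnt-3 stand at 493 and 462 in replicate 2.

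By each replicate's own list, 7 of the 49 genes had a summit among the 1000 highest of replicate 1 (14.3%, against 5.54% of protein-coding genes). In replicate 2, 8 did (16.3%, against 5.4%). The genes were unc-52, ttn-1, mlc-3, unc-68, unc-89, unc-22 and deb-1 in replicate 1, and act-4, unc-60, unc-89, tnt-3, pat-9, ttn-1, unc-112 and myo-2 in replicate 2. Of these ttn-1 and unc-89 were in both, 28.6% of the genes of replicate 1 and 25% of those of replicate 2. At each of them the summits of the 2 lists lay at different places. Over all protein-coding genes the overlap was 300, or 27.1% of the 1106 genes of replicate 1 and 27.8% of the 1078 of replicate 2, so the overlap at muscle genes was near that of all genes.

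Sequence words at the summits were mostly near the shares of the pooled list. Words were searched on both strands in the central 200 bp. The core word TGATAC of SIX-family factors was at 4.35% of the 230 summits and 6.69% of the pooled list. TGACAC, the core word of fly Six4, was at 6.52%, compared with 8.17%, and the MEF3 word with at most 1 mismatch at 4.35%, against 6.26%. Among the 30 higher summits the MEF3 word was at 2, in unc-52 and deb-1 (6.67%, against 5.77% of the 3000 highest), and TGACAC was at 4 (13.3%, against 8.87%). TGATAC was at 0 of them, against 5.93%, CAGCTG at 1 (3.33%, against 5.93%), TGATAA at 3 (10%, against 13.2%) and CACACA at 5 (16.7%, against 16.6%). The GA repeat GAGAGAGA was at 4.35% of all summits of the set, against 2.46%. It was at 0 of the 30 higher summits, against 5.67% of the 3000 highest. A count of 0 in 30 leaves room for shares up to 10%. The E-box CAGCTG, a word bound by the muscle factor HLH-1, was at 5.65%, against 4.9%, CACACA at 11.3%, against 10.9%, and TGATAA at 16.1%, against 16.3%. TGATAC and TGATAA differ only in their last letter, and copies of GAGAGAGA or CACACA overlap within a repeat.

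Genes of 4 other lists on muscle and its attachments, 60 in all, had shares close to those of the 49. A summit among the 1000 highest was in reach of 11 (18.3%, against 5.2% of protein-coding genes). One among the 3000 highest was in reach of 25 (41.7%, against 15.1%). Their median best rank was 4170.5 and their median length 7405 bp, against 2027 bp for protein-coding genes. Of protein-coding genes of 5 to 10 kb, 9.8% had a summit among the 1000 highest. Fibrous organelle and basement membrane genes, which link muscle to the cuticle through the epidermis, had 6 of 17. Those were the attachment genes mua-3 (signal 40.7, rank 232), him-4 (40.4) and mup-4 (30.9), the laminin gene epi-1 (36.4) and the collagen IV genes let-2 (36.5) and emb-9 (33.4). These summits were in coding exons except that of him-4, which was in an intron. Among excitation and calcium genes 3 of 20 had a summit among the 1000 highest, the junctophilin gene jph-1 (42.4, rank 196), the GABA receptor gene unc-49 (35.3) and the potassium channel gene slo-1. The slo-1 summit, 1539 bp upstream of a 5' end with a signal of 51 at rank 99, was the only thresholded summit in reach of the 60, and replicate 1 had no partner for it. The list of other dense body, M-line and thin filament genes had 2 of 15, scpl-1 (32.3) and unc-23 (30.5), and that of other dystrophin complex genes 0 of 8.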

How the data were processed

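UNC-39 binding was measured by ChIP-seq in 2 biological replicates of 1 group. Per the listings deposited with the samples, the authors made a peak list from the alignments of each replicate, a pooled one from both replicates, each with a control alignment, and a thresholded list from these by irreproducible discovery rate. The pooled list is labelled as peaks and background, the input to that last step. No aligner, caller, version or threshold is named in the sources used. The signal in the deposited lists is the authors' enrichment value for a peak. It has no stated unit. All 140 thresholded peaks carry the signal they have in the pooled list, where they are the 140 highest, so these lists share a scale, and the replicates' lists were not compared by signal. The pooled list held 30000 peaks of 364 bp, that of replicate 1 held 30000, that of replicate 2 held 24978 and the thresholded list 140, on ce11. No read counts were used, so depth is unknown, and unequal depth could move ranks and list lengths. The control library was not analysed here and the ce10 lists were not used. The sequence of 1 peak is not reported here.

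Gene models came from Ensembl release 115 on WBcel235, the assembly also called ce11, and bases from the RefSeq genome of that assembly. All 49 names matched a protein-coding gene. Peaks were ranked by signal within a list, and summits of different lists were matched within 100 bp. Shares are given beside those of all protein-coding genes or pooled summits. Intervals are exact binomial (Clopper-Pearson) at 95%, and a count of 0 allows 3 counts of the total. With 1 group there is no test between conditions, and none was run. The code for the reach counts was run on 200 simulated summits, each planted within 2000 bp of a 5' end, and 200 were recovered. As all were planted in reach, this checks the counting only. Python 3.11.15, pandas 2.3.3, scipy 1.17.1 and matplotlib 3.10.9 were used.

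The genes, their roles, the other lists and the words were chosen with earlier results of these data known. By rule, every one of the 49 genes is named with its number of summits. Summits among the 3000 highest pooled and the best of each role are given with position and pooled rank, most also with their ranks in the replicates. Genes of the other lists are named where a summit was among the 1000 highest. Alternatives changed the reach, the assignment of summits, the list and the matching distance.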

Additional observations from a re-analysis of the deposited data

How the results depend on the processing

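The number of genes with a thresholded summit stayed at 0 under each change of reach, with the nearest 5' end only and with a stricter signal limit, and was 0 to 1 with each replicate's own 140 highest peaks, the 1 being unc-52 in replicate 1. With 2000 bp around 5' ends only, leaving out gene bodies, the genes with a summit among the 1000 highest were 4 and among the 3000 highest 9, and the median best rank stood at 22.2% of the list, against 7, 17 and 16.5% with gene bodies. With a summit counted only for the gene of the nearest 5' end, 5 genes had one among the 1000 highest and 12 among the 3000 highest. The same counts over all protein-coding genes are not given. Median best rank was 12.5% to 17.7% of the list with each replicate left out. Density was 0.399 per kb at 1000 bp, 0.403 with 5' ends only, 0.288 when a summit counted only for the gene of the nearest 5' end, and 0.359 to 0.367 with each replicate left out, against 0.389. The 0.313 of protein-coding genes belongs to the main rule and is not given under these, so these densities cannot be set against it. The share of summits with a partner in both replicates was 14.8% within 50 bp and 32.2% within 200 bp, against 21.7%. The density of higher summits in coding exons was 0.0704 to 0.0793 with each replicate left out. The other alternatives moved counts by at most 1.5 times and other values by less than the spread between replicates. The ce10 lists were not run. No paired analysis was possible because there is 1 group. With no read counts, how far depth sets these ranks was not tested.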
